A study of Mus musculus with 8 samples.

Results

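The long CDR3s of the T-cell receptor (TCR) β-chain, taken as those of 17 or more amino acids counted from the opening cysteine to the closing phenylalanine, made up 1777 of the 60131 β-chain clonotypes of endogenous CD8+ T (en-T) cells. A clonotype is one row of the deposited lists, that is, one CDR3 nucleotide sequence with its V, D and J segments. The members were chosen by length alone, 720 in the CTXpre group (3 mice) and 1057 in the CTXpre/CD4post group (5 mice), and were set against the 54657 clonotypes of 12 to 16 residues of the same mice. The mice were female C57BL/6 animals aged 6 to 8 weeks that bore B16F10 melanoma from day 0. Both groups received the lymphodepleting drug cyclophosphamide (CTX) at 300 mg/kg on day 3, Pmel-1 CD8+ T cells from Thy1.1 TCR-transgenic donors on day 5, and IL-2 for 3 days. The CTXpre/CD4post group was also given 200 μg of the depleting anti-CD4 antibody GK1.5 on days 10, 17 and 24. On day 25, CD8+ cells without Thy1.1 were sorted from inguinal lymph nodes and spleen, 1 library per mouse. The purity of that sort was not tested here.

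In the β-chain locus a V segment is joined to a D and a J segment, and the CDR3 is the loop that spans the joints and lies closest to the bound peptide. Exonucleases trim the segment ends and terminal transferase adds bases that no segment encodes, so the length of a CDR3 is the sum of what is kept and what is added. TRBD1 lies upstream of both J clusters and can join either, whereas TRBD2 lies between the clusters and normally joins TRBJ2 only. Both D segments are rich in G, and each of their reading frames encodes glycine.

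The sequences below show how long CDR3s are put together, in examples picked for their abundance, for being found in 2 mice or for their length. The germline D segments are given first (strand +, GRCm38). The next lines hold the germline end of TRBJ2-3, a segment over-represented among long CDR3s, and of TRBJ2-7, an under-represented one, with the codon of the closing phenylalanine in capitals, and the germline start of the CDR3 in TRBV5, with the cysteine codon in capitals. In the CDR3s that follow, capitals mark the bases assigned to D, which can run past the germline segment or carry mismatches. These are the most abundant long CDR3 of CTXpre mouse 1, those of CTXpre/CD4post mice 3 and 4, and one found in CTXpre/CD4post mice 1 and 2. In the longest CDR3, the last line, capitals mark instead a complete copy of the germline TRBJ1-6 end.
TRBD1, chr6:41533201-41533212: gggacagggggc
TRBD2, chr6:41542163-41542176: gggactgggggggc
TRBJ2-3 end: agtgcagaaacgctgtatTTT
TRBJ2-7 end: ctcctatgaacagtacTTC
TRBV5 start: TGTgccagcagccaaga
CTXpre 1, TRBV13-2/TRBD2/TRBJ2-4, 4 reads: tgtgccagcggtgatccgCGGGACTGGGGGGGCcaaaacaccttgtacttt
CTXpre/CD4post 3, TRBV13-3/TRBD1/TRBJ1-6, 67 reads: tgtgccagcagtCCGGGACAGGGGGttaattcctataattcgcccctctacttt
CTXpre/CD4post 4, TRBV16/TRBD2/TRBJ2-2, 14 reads: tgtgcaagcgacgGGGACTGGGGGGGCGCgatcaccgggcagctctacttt
CTXpre/CD4post 1 and 2, TRBV13-2/TRBD1/TRBJ2-3, 1 read each: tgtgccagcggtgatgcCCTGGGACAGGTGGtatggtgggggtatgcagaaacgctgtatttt
CTXpre 2, TRBV15/TRBD1/TRBJ1-6, 1 read: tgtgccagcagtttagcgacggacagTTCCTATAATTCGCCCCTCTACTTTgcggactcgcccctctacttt

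Each library held 10000 reads after down-sampling by the authors, so the read totals were equal, while the number of receptor molecules behind them is unknown. The values are PCR reads for which no molecular identifiers are described, and the intervals below cover counting error only. Libraries 1 and 2 of the CTXpre/CD4post group shared 178 β-chain nucleotide sequences of any length, and 42 to 81 (median, 65) were shared in each of the remaining 27 pairs. Sharing between mice is therefore also given without mouse 2 of the group. Whether libraries 1 and 2 share material was not tested. If they do, these 2 are not independent in the values of their group.

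Long CDR3s were a small and even part of every repertoire. They made up 2.89%, 2.86% and 3.07% of the clonotypes in the 3 CTXpre mice and 3.51%, 2.75%, 3.01%, 2.86% and 2.66% in the 5 CTXpre/CD4post mice. The group means were 2.94% ± 0.113 (SD, n = 3) and 2.96% ± 0.334 (SD, n = 5), and the groups overlapped (p = 0.786 in the Mann–Whitney U-test, exact and two-sided as are all tests here, adjusted p = 0.786 over 5 group measures). The smallest p that 3 mice against 5 allow is 0.0357. CTXpre/CD4post mouse 1 had the highest share (Wilson 95% interval, 3.11% to 3.96%). Most long CDR3s were just over the limit, with 1434 of 17 residues, 290 of 18, 44 of 19, 6 of 20, 2 of 21 and 1 of 24.

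**Figure D1:**
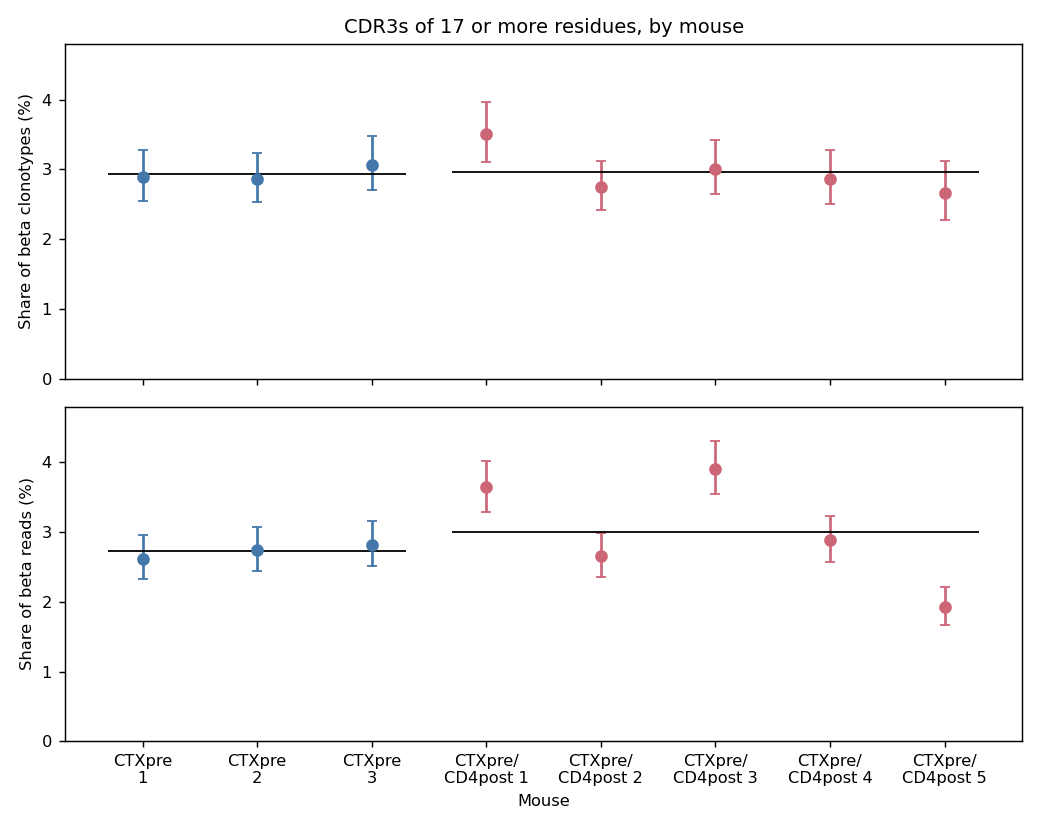
Share of β-chain clonotypes (top) and of β-chain reads (bottom) with a CDR3 of 17 or more residues, in percent, for each of 3 CTXpre (blue) and 5 CTXpre/CD4post (red) mice. Bars are Wilson 95% intervals and black lines are group means; the clonotype shares lie between 2.66% and 3.51%, and the read shares spread more widely in the CTXpre/CD4post group, from 1.92% to 3.91%.

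The long CDR3s took 2.62%, 2.74% and 2.82% of reads in the CTXpre mice and 3.64%, 2.66%, 3.91%, 2.88% and 1.92% in the CTXpre/CD4post mice. Mice 1, 3 and 4 of that group were above the highest CTXpre mouse and mouse 5 was below the lowest. The means were 2.73% ± 0.101 (SD, n = 3) and 3.002% ± 0.796 (SD, n = 5), and the difference was within the spread of the mice (exact Mann–Whitney U-test, p = 0.571, adjusted p = 0.714). Leaving out CTXpre/CD4post mouse 3 reduced the difference from 0.275 to 0.0483 percentage points, and it was 0.116 without mouse 1 and 0.546 without mouse 5.

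Clonotypes of 10 or more reads, called expanded here, were found among the long CDR3s of the CTXpre/CD4post group. None of the 720 long clonotypes of the CTXpre group had 10 reads, which allows a share of up to 0.417%. The CTXpre/CD4post group had 7 of 1057, or 0.662% (Wilson 95% interval, 0.321% to 1.36%), distributed as 1, 0, 4, 2 and 0 over mice 1 to 5. The limit and the interval count clonotypes pooled over the mice of a group. They leave out the spread between mice and are too narrow for a group share. In CDR3s of 12 to 16 residues the shares were 0.135% of 22260 clonotypes and 0.642% of 32397, so the limit in the CTXpre group lies above the share at the usual lengths, and a lower share of expanded long clonotypes was not detectable at this depth. Expanded clonotypes held 0% of the long reads in every CTXpre mouse and 3.57%, 0%, 31.7%, 8.68% and 0% in the CTXpre/CD4post mice (exact Mann–Whitney U-test, p = 0.286, adjusted p = 0.714). The mean of the CTXpre/CD4post group, 8.79%, rested largely on mouse 3 and was 3.06% without it.

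The most abundant long CDR3 of all was the TRBV13-3/TRBD1/TRBJ1-6 sequence of CTXpre/CD4post mouse 3, which has 18 residues. Its 67 reads ranked 3 in that library, after clonotypes of up to 153 reads, and made up 17.1% of the long reads of the mouse. The other expanded long clonotypes of mouse 3 carried TRBV4/TRBD2/TRBJ2-5 (32 reads), TRBV1/TRBD2/TRBJ2-4 (14 reads) and TRBV31/TRBD2/TRBJ2-1 (11 reads). Mouse 4 had TRBV16/TRBD2/TRBJ2-2 (14 reads) and TRBV17/TRBD2/TRBJ2-2 (11 reads), and mouse 1 had TRBV3/TRBD2/TRBJ2-4 (13 reads). The clonotype of mouse 1 has no unassigned base, but its assigned V stretch ends in bases that differ from the germline TRBV3. These 7 expanded clonotypes were named after their values were seen. They used 7 different V segments, 6 of them with TRBD2, and none was found in another mouse. In the other mice the most abundant long clonotype had 4, 3 and 3 reads (CTXpre) and 6 and 6 reads (CTXpre/CD4post mice 2 and 5). Its rank in the library was 45, 56 and 92 in the CTXpre mice and 26, 42, 3, 23 and 145 in the CTXpre/CD4post mice, so the groups overlapped.

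Most long clonotypes were seen in 1 read. The share was 89.7%, 88.9% and 84.8% in the CTXpre mice and 75.8%, 89.5%, 85.2%, 76.0% and 82.8% in the CTXpre/CD4post mice, 3 of which were below the lowest CTXpre mouse. The means, 87.8% ± 2.65 (SD, n = 3) and 81.9% ± 5.94 (SD, n = 5), did not differ beyond the spread of the mice (exact Mann–Whitney U-test, p = 0.25, adjusted p = 0.714). Within the mice the long class had 1.03 ± 3.35 percentage points (SD, n = 8) more clonotypes of 1 read than the 12 to 16 class, higher in 6 of 8 mice, and the test was not passed (exact sign-flip test, p = 0.398, adjusted p = 0.398). This difference averaged 3.05 percentage points in the CTXpre mice and -0.182 in the CTXpre/CD4post mice. Over all mice it ranged from 0.43 to 1.71 with 1 mouse left out. At 18 or more residues it was 5.21 (exact sign-flip test, p = 0.0234).

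The extra length was spread over all parts of the joint. With clonotypes without a D counted as 0 bases of D, long clonotypes carried on average 10.4 bases assigned to D against 6.10 in the 12 to 16 class, 21.4 against 18.8 bases of J, 15.7 against 14.2 bases of V, and 4.13 against 2.99 bases assigned to no segment. By assignment, the 9.72 additional bases thus fell 44.5% to D, 26.9% to J, 15.6% to V and 11.8% to unassigned bases. Assigned stretches can run past the germline segment. Long TRBV2 clonotypes averaged 17.6 V bases, where the germline has 17, and long TRBJ1-3 clonotypes 22.8 J bases, where it has 22. The unassigned part is therefore not a full count of the added bases. These parts add up to the length by which the clonotypes were chosen, apart from a small overlap of V and J assignments, and the differences are a description with no test. All 4 parts were longer in each of the 8 mice, with the D part 4.01 to 4.56 bases longer and the unassigned part 0.796 to 1.57 bases longer. The size of the D part rests on counting clonotypes without a D. Among clonotypes with a D, a comparison added after the values were seen, the long class had 10.8 against 8.18 bases of D, a difference of 2.65 bases, and the difference in J was 3.06 bases, in V 1.92 and in unassigned bases 1.56, so that D no longer held the largest part.

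**Figure D2:**
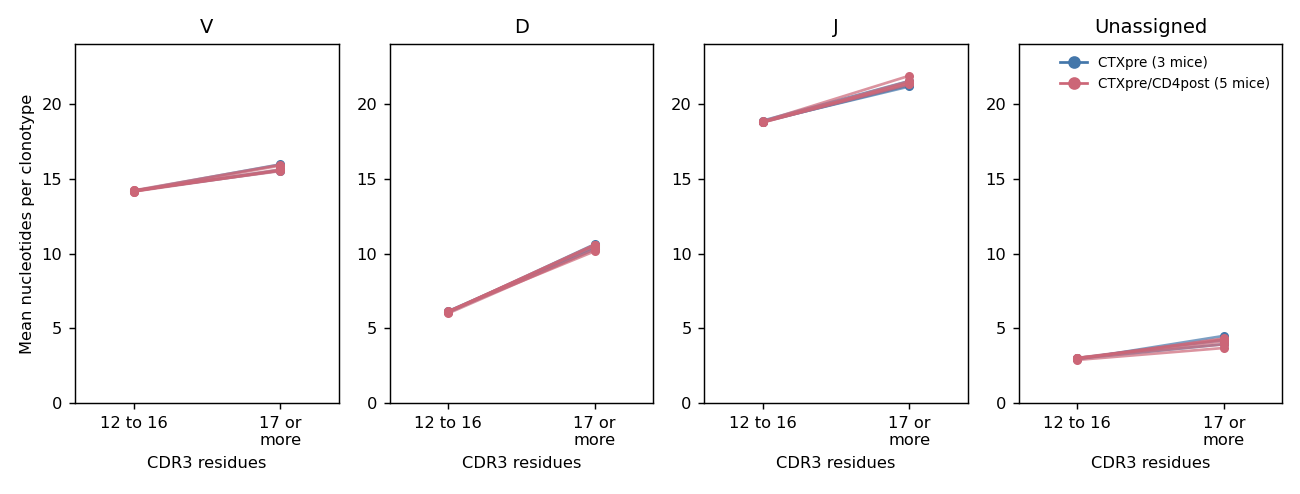
Mean number of nucleotides per clonotype assigned to V, D (0 where none was assigned), J or to no segment, in CDR3s of 12 to 16 and of 17 or more residues; each line joins the values of one of 3 CTXpre (blue) or 5 CTXpre/CD4post (red) mice. The D part has the steepest lines, from 6.10 to 10.4 bases on average, and the lines of the groups lie on top of each other.

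The unassigned bases of long CDR3s, the nearest measure in these lists to the non-templated additions, numbered 4.502, 3.95 and 4.23 in the CTXpre mice and 4.33, 4.14, 3.69, 3.94 and 4.27 in the CTXpre/CD4post mice. The groups overlapped (exact Mann–Whitney U-test, p = 0.571, adjusted p = 0.714). The CTXpre/CD4post mean minus the CTXpre mean was -0.15, and ranged from -0.289 without CTXpre mouse 2 to -0.0113 without CTXpre mouse 1. No unassigned base was left in 133 long clonotypes (7.48%), against 15.7% of the 12 to 16 class. The longest CDR3 differed from the rest, with 33 unassigned bases. A complete 25-base TRBJ1-6 end occupied its bases 27 to 51, before the TRBJ1-6 stretch that the alignment assigned, which began at base 58 of 72.

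A D segment was almost always recognised. Only 65 long clonotypes had none assigned, on average 3.69% per mouse (range, 2.47% to 5.24%) against 25.4% (range, 24.8% to 25.9%) of those of 12 to 16 residues. The difference was -21.7 ± 1.18 percentage points (SD, n = 8) with the same direction in 8 of 8 mice (exact sign-flip test, p = 0.00781, the smallest that 8 mice allow, adjusted p = 0.0104). The share depends on length by construction, since a longer joint leaves more room for a D match, so the choice of members largely fixes the outcome of this test. It fell steadily from 49.4% at 12 residues through 7.74% at 16 to 4.11% at 17, so that nothing in it began at the limit of 17.

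TRBD2 was the D segment of most long CDR3s. It was assigned to 1175 of them (66.1%) and TRBD1 to 537 (30.2%), whereas in the 12 to 16 class TRBD2 had 33.0% and TRBD1 41.6%. To compare the segments where both can join, the share of TRBD2 was taken among TRBJ2 clonotypes with a D segment. It was 85.3%, 81.9% and 81.2% in the long clonotypes of the CTXpre mice and 81.7%, 82.6%, 82.3%, 80.5% and 76.0% in those of the CTXpre/CD4post mice, above the 55.4% to 58.5% of the 12 to 16 class in each mouse. The difference was 24.1 ± 2.92 percentage points (SD, n = 8; exact sign-flip test, p = 0.00781, adjusted p = 0.0104). TRBD2 has 14 bases in the germline and TRBD1 has 12, so the choice by length itself favours TRBD2 and the test is not independent of it. Among all clonotypes the share assigned to TRBD2 was 15.4% at 12 residues, 56.7% at 16 and 65.2% at 17. The shift was 21.2 percentage points (exact sign-flip test, p = 0.00781) when only D stretches found in a single germline D segment were counted. Among long TRBJ1 clonotypes with a D, TRBD2 was assigned to 23 (7.62%) against 8.54% in the 12 to 16 class, although this join goes against the order of the segments on the chromosome.

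The complete D segment was found more often in long CDR3s. The full germline segment stood in the CDR3 of 10.5% ± 1.86 of the long clonotypes (SD, n = 8 mice) and of 1.76% ± 0.248 of the 12 to 16 class, and the long class was higher in 8 of 8 mice. This too follows in part from the choice by length. The D stretch matched the germline without a mismatch in 50.3% of the long TRBD2 clonotypes and 71.3% of the shorter ones, so the longer assigned stretches were less often exact. All 3 reading frames of TRBD2 were found. The motif LGG was present in 21.9% of long TRBD2 clonotypes, TGG in 20.2% and WGG in 19.0%, against 12.5%, 12.01% and 9.59% in the 12 to 16 class. Of long TRBD1 clonotypes 16.8% held GQG, 14.3% GTG and 11.4% DRG, against 7.47%, 8.51% and 7.53%. These counts are of letters in the CDR3 and were not tested.

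**Figure D3:**
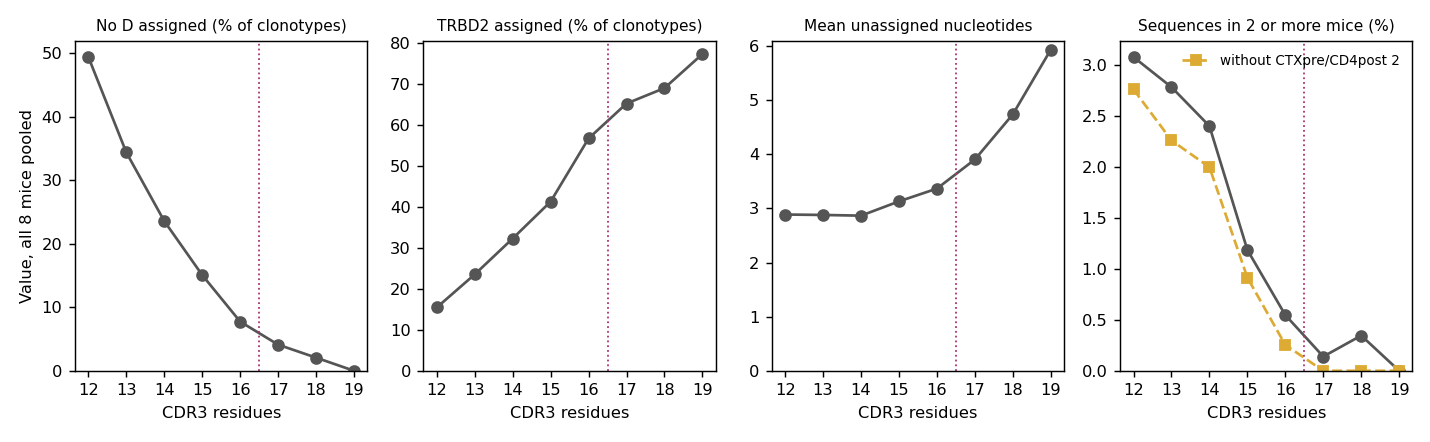
Share of clonotypes with no D assigned, share with TRBD2, mean unassigned nucleotides, and share of distinct nucleotide sequences found in 2 or more mice, at each CDR3 length from 12 to 19 residues with all 8 mice pooled; the dotted line marks the limit between 16 and 17 residues. Each measure runs on across the limit without a step: no D falls from 49.4% at 12 residues to 4.11% at 17, and sharing reaches 0 from 17 residues on once CTXpre/CD4post mouse 2 is left out (squares).

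The J segments divided sharply. Of 12 TRBJ segments tested, 7 (58.3%) differed in share between long clonotypes and those of 12 to 16 residues at an adjusted p under 0.05 (exact sign-flip test over 8 mice, Benjamini–Hochberg adjusted over the 12), 3 higher and 4 lower. All 3 that were higher lie in the second cluster. Bases of J are part of the CDR3 length, so the tests of J segments are not independent of the choice by length. TRBJ2-3 was used by 18.6% ± 1.94 of long clonotypes (SD, n = 8) against 9.11% ± 0.570, TRBJ2-4 by 16.9% ± 2.19 against 8.72% ± 0.286, and TRBJ2-2 by 11.03% ± 2.49 against 5.18% ± 0.282. Each was higher in 8 of 8 mice with no overlap of the ranges (adjusted p = 0.0156 by the exact test). TRBJ2-3, for example, ranged from 16.2% to 22.7% of long clonotypes and from 7.82% to 9.64% of the others.

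TRBJ2-7, the most used J segment at 12 to 16 residues, fell from 20.8% ± 0.779 to 6.07% ± 1.59 (SD, n = 8). TRBJ1-1 fell from 9.44% ± 0.492 to 1.08% ± 0.784 and TRBJ1-2 from 5.63% ± 0.234 to 0.662% ± 0.533, so that 18 and 12 long clonotypes were left with them. All 3 were lower in 8 of 8 mice with no overlap (adjusted p = 0.0156 by the exact test), and they have the shortest germline CDR3 ends of the 12, with 19, 20 and 20 bases. TRBJ1-5, with 22 bases, was also lower, at 1.17% ± 0.635 against 2.42% ± 0.321, in 7 of 8 mice (exact test, adjusted p = 0.0268), and with 1 mouse left out it was called in 2 of 8 runs, those without CTXpre mouse 1 or 3. At 18 or more residues TRBJ2-2 was no longer called and TRBJ2-1 was. The other 5 segments did not pass the test. TRBJ2-1 had 16.4% against 13.7%, TRBJ2-5 had 12.5% against 12.1%, TRBJ1-4 had 6.43% against 6.02%, TRBJ1-3 had 4.97% against 4.19%, and TRBJ1-6, which has the longest germline end (25 bases), had 4.07% against 2.71% (exact test, p = 0.0469, adjusted p = 0.0703). Across the 12 segments the germline length and the ratio of the shares had a Spearman rho of 0.59, given as a description. TRBJ2-5 and TRBJ2-3 both have 21 bases, yet their ratios were 1.04 and 2.05.

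**Figure D4:**
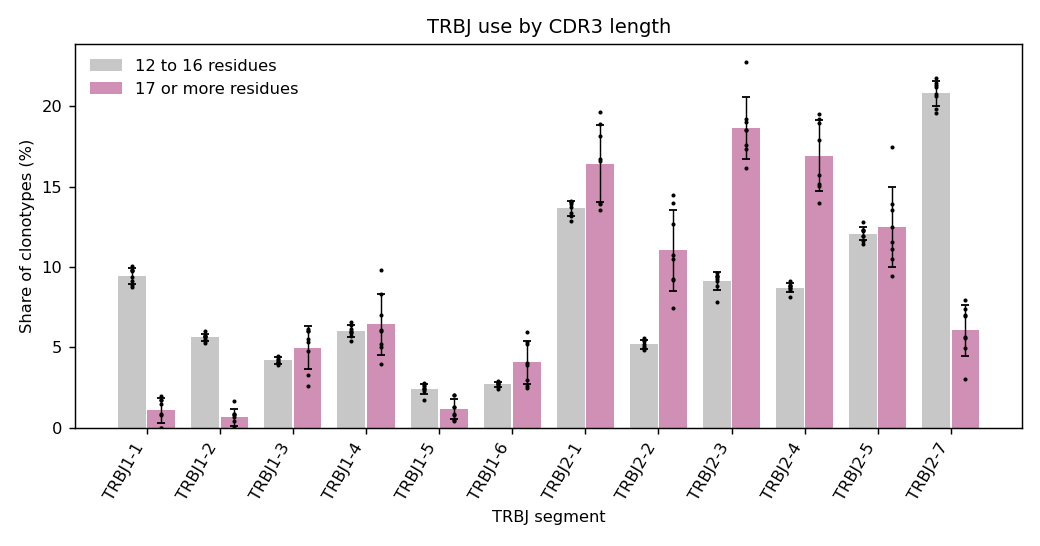
Share of clonotypes (%) with each TRBJ segment in CDR3s of 12 to 16 residues (grey) and of 17 or more (purple); bars are means over 8 mice, whiskers SD and dots single mice. TRBJ2-2, TRBJ2-3 and TRBJ2-4 stand higher in the long class and TRBJ1-1, TRBJ1-2 and TRBJ2-7 lower, with no overlap between the mice of the classes.

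V use also differed by length. Of 22 TRBV segments tested, 16 (72.7%) passed an adjusted p of 0.05 (exact sign-flip test over 8 mice, adjusted over the 22), 6 higher and 10 lower among long clonotypes. Bases of V are likewise part of the CDR3 length, so the tests of V segments are not independent of the choice by length. The largest rise was in TRBV5, from 4.67% ± 0.393 to 10.8% ± 1.76 (SD, n = 8), followed by TRBV16 (10.5% to 14.6%) and TRBV2 (1.65% to 5.27%). These and TRBV24, the smallest of the 6 rises in percentage points (0.178% to 0.909%), were higher in 8 of 8 mice (adjusted p = 0.0156 by the exact test). TRBV13-2 rose from 5.84% to 7.61% (7 of 8 mice, adjusted p = 0.0246 by the exact test), and TRBV1 from 4.82% to 6.63% (6 of 8 mice, adjusted p = 0.043 by the exact test), and with 1 mouse left out it was called in 2 of 8 runs, those without CTXpre/CD4post mouse 2 or 4. TRBV2 and TRBV5 have the same germline CDR3 start, printed above for TRBV5, and 9.04% and 6.87% of their clonotypes were long with all mice pooled. TRBV24, a pseudogene in the annotation used, had the highest such share, 13.4%, but only 16 long clonotypes.

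The decreases by size were in TRBV29, from 5.10% ± 0.890 to 1.74% ± 1.24 (SD, n = 8), TRBV13-3 (10.6% to 7.35%), TRBV12-1 (7.84% to 4.75%), TRBV14 (4.51% to 1.81%) and TRBV20 (2.39% to 0.689%), each lower in 8 of 8 mice (adjusted p = 0.0156 by the exact test), and TRBV19 (4.23% to 2.95%; 7 of 8 mice, adjusted p = 0.0246 by the exact test). The other 4 that fell had long shares between 0.102% and 3.5%. Only 6 segments kept the mice of the classes fully apart, namely TRBV2, TRBV5 and TRBV24 above and TRBV12-1, TRBV14 and TRBV20 below. TRBV20 has 14 germline bases in the CDR3, where most V segments have 16 or 17. Germline length and the ratio of shares had a Spearman rho of 0.49 over the 22 segments, again a description. TRBV29 has 17 bases, as TRBV5 does, but contributed few long CDR3s. Against clonotypes of 14 to 16 residues 11 segments were called, and TRBV1, TRBV13-2, TRBV13-3, TRBV19 and TRBV30 were not among them. At 18 or more residues 4 were called, of which TRBV2, TRBV4 and TRBV14 were also called at 17 or more and TRBV23 was not. Weighted by reads 9 were called, and TRBV1, TRBV4, TRBV13-2, TRBV13-3, TRBV16, TRBV19 and TRBV30 were not among them. TRBV30, among the 10 that fell, was called in 2 of 8 runs with 1 mouse left out, those without CTXpre mouse 2 or CTXpre/CD4post mouse 1. Counted at 2 or more reads, no V segment passed the test (6 of 20 at an unadjusted p under 0.05), with 280 long clonotypes left in all.

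**Figure D5:**
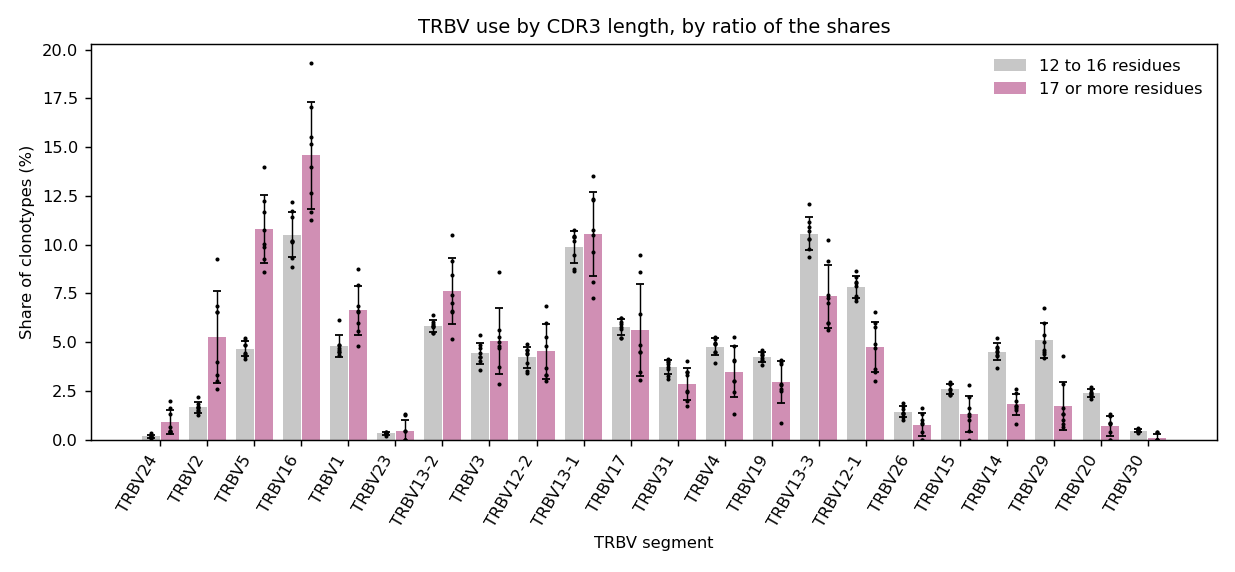
Share of clonotypes (%) with each of 22 TRBV segments in CDR3s of 12 to 16 residues (grey) and of 17 or more (purple), ordered by the ratio of the shares; bars are means over 8 mice, whiskers SD and dots single mice. TRBV24, TRBV2 and TRBV5 head the order, and TRBV29, TRBV20 and TRBV30 end it.

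In 2 of 3 pairs of V segments with an identical germline CDR3 start, the segments gave long CDR3s at different rates. The annotation holds these 3 pairs among the V segments in use, and they were compared after the values had been seen. TRBV13-1 had 3.06% ± 0.521 long clonotypes (SD, n = 8) and TRBV13-3 had 2.02% ± 0.422, higher in 8 of 8 mice (exact sign-flip test, p = 0.00781, adjusted p = 0.0117 over the 3 pairs). TRBV12-2 had 3.20% ± 0.899 and TRBV12-1 had 1.83% ± 0.412, with the same direction in 8 of 8 mice (exact sign-flip test, adjusted p = 0.0117). The difference between TRBV2 and TRBV5, 8.89% ± 2.97 and 6.85% ± 1.25, was not larger than the spread between mice (exact sign-flip test, p = 0.141, adjusted p = 0.141; 5 of 8 mice). Over all lengths the bases assigned to V averaged 14.4 in TRBV13-1 and 13.6 in TRBV13-3 clonotypes, and 15.2 and 15.4 in TRBV12-1 and TRBV12-2. The germline CDR3 start of TRBV12-1 and TRBV12-2 has 15 bases. Assigned V stretches can thus run past the germline and do not measure how much V was kept.

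Among V-J pairs, TRBV16/TRBJ2-4 had 55 long clonotypes (3.10% of them, against 1.09% of the 12 to 16 class), TRBV16/TRBJ2-3 had 45, TRBV16/TRBJ2-5 had 41, TRBV13-1/TRBJ2-1 had 39 and TRBV5/TRBJ2-1 had 35, and each was found in all 8 mice. Of 282 V-J pairs in the lists, 212 had at least 1 long clonotype.

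The centre of the long loops was rich in glycine. Over the middle 5 residues of each CDR3, 10 of 20 amino acids (50%) differed in share between the classes at an adjusted p under 0.05 (exact sign-flip test over 8 mice, adjusted over the 20), 3 higher and 7 lower in long CDR3s. Serine, among the 7, was called in 1 of 8 runs with 1 mouse left out, that without CTXpre/CD4post mouse 2. Glycine, which has no side chain, rose from 24.9% ± 0.174 to 37.2% ± 1.27 of the middle residues (SD, n = 8), tryptophan from 2.84% ± 0.117 to 5.40% ± 0.677 and leucine from 5.34% ± 0.134 to 6.57% ± 0.563. Glutamine fell from 5.56% to 2.19%, aspartate from 8.20% to 5.40%, tyrosine from 3.93% to 1.36% and asparagine from 7.02% to 4.91%. All of these had the same direction in 8 of 8 mice (adjusted p = 0.0174 by the exact test). Without clonotypes of 1 read, alanine, glutamate, leucine and serine were no longer called. The residues were chosen by their position in the loop, and over all residues but the first 4 and last 4 the calls for aspartate, glutamate, glutamine and serine were lost, whereas glycine, tryptophan, leucine, tyrosine, asparagine and alanine were still called and lysine, proline and threonine were called in addition.

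Mean hydropathy of the middle 5 residues on the Kyte–Doolittle scale, which runs from -4.5 (hydrophilic) to 4.5 (hydrophobic), was -0.798, -0.786 and -0.604 in the long clonotypes of the CTXpre mice and -0.621, -0.603, -0.628, -0.627 and -0.768 in those of the CTXpre/CD4post mice, less hydrophilic than the -1.07 to -1.02 of the 12 to 16 class in every mouse. The difference was 0.354 ± 0.0931 (SD, n = 8; exact sign-flip test, p = 0.00781, adjusted p = 0.0104). It was 0.0937 (exact test, p = 0.0156) over all residues but the first 4 and last 4, and 0.0941 (exact test, p = 0.0156) when only clonotypes with TRBD2 were compared. Loop length sets which part of the joint the middle residues come from, so these tests too are not independent of the choice by length. Among TRBD2 clonotypes, a comparison added after the values were seen, 6 amino acids passed the exact sign-flip test. Glycine was still higher there (41.0% against 34.6%, adjusted p = 0.026 by the exact test) and glutamine, tyrosine, aspartate and glutamate lower, but asparagine was higher (4.64% against 3.26%, 8 of 8 mice, adjusted p = 0.026 by the exact test), the opposite of its direction over all clonotypes. Tryptophan (7.19% against 6.66%) and leucine (7.85% against 7.59%) did not pass among them.

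A cysteine inside the loop, which can form a disulfide bridge, was found in 127 long CDR3s (7.15%) against 5.05% of the 12 to 16 class. TRBV1, whose germline CDR3 start encodes one, accounted for all but 10 of the 127. Without TRBV1 the shares were 0.602% of 1660 and 0.275% of 52027 clonotypes, too few to compare by mouse.

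Long CDR3s were largely private to each mouse. Of 1770 long clonotypes defined by amino acids, V and J, 7 (0.395%) were found in 2 mice and none in 3 or more, whereas at 12 to 16 residues 4.73% were in 2 or more mice and some in all 8. By nucleotides 4 of 1773 (0.226%) were in 2 mice, against 2.08%. Of these 4, 3 were in common between CTXpre/CD4post mice 1 and 2, and the fourth was found in CTXpre mouse 3, where it was assigned to TRBV5, and in CTXpre/CD4post mouse 2, where it was assigned to TRBV4. The remaining 26 pairs of mice had no long nucleotide sequence in common. Without CTXpre/CD4post mouse 2, no long nucleotide sequence was found in 2 mice (0 of 1548) and 2 of 1546 amino acid clonotypes were (0.129%, against 4.01% at 12 to 16 residues).

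Counted in each mouse, 0% to 1.75% of long clonotypes had their nucleotide sequence in another mouse, against 3.78% to 5.78% of the 12 to 16 class. Of clonotypes of 16 residues, just outside the limit, 0.261% to 2.32% did, a range that overlapped that of the long class. A sequence found in 2 mice counts in both, so the mice are not independent here and the shares are a description. Without CTXpre/CD4post mouse 2 the long share was 0% in all 7 mice, against 3.36% to 3.92% of the 12 to 16 class and 0.203% to 0.952% at 16 residues. The 7 shared long amino acid clonotypes, named after their values were seen, had 17, 18 or 21 residues. Of the 4 whose nucleotides differed between the mice, all used TRBD2, with TRBV13-1/TRBJ2-1, TRBV16/TRBJ2-4, TRBV12-1/TRBJ2-4 or TRBV12-1/TRBJ2-3, and had 1 to 3 unassigned bases.

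Which segments the long reads used was not found to differ between the groups. In edgeR's quasi-likelihood test on reads per segment and length class, 0 of 52 TRBV rows (0%) and 0 of 31 TRBJ rows (0%) passed an adjusted p of 0.05, of which 13 and 9 were rows of long CDR3s. No long row had an unadjusted p under 0.05 in edgeR, and DESeq2 called 0. The lowest adjusted p was 0.635 for a long V row (TRBV3, log2 fold change CTXpre/CD4post over CTXpre, 0.79) and 0.674 for a long J row (TRBJ1-6, log2 fold change 1.399). Long TRBJ1-6 reads numbered 6, 15 and 7 in the CTXpre mice and 13, 9, 80, 8 and 9 in the CTXpre/CD4post mice. The value of 80 in mouse 3 holds the clonotype of 67 reads, and the other mice overlapped. The differences between long clonotypes and those of 12 to 16 residues in the share without D, in TRBD2 use, in hydropathy and in clonotypes of 1 read were likewise not found to differ between the groups (exact Mann–Whitney U-test, p of 0.786, 0.25, 0.393 and 0.25).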

How the data were processed

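β-chain lists of 8 mice were analysed, and α-chain lists were not used here. TCR transcripts were amplified by nested PCR and sequenced as paired MiSeq reads. The authors trimmed adapters, discarded short reads, used MiXCR for alignment (version and reference library not given in the sources used here) and VDJtools to separate the chains, and drew 10000 reads from every library. The submitters' processing notes name bcl2fastq and mm10. The deposited count is whole reads per clonotype, the deposited fraction is that count over 10000, and the deposited positions give the last V, first and last D and first J base. Groups and replicate numbers came from the sample labels, and each library is 1 mouse.

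The members and lists were chosen with earlier results of these data known. Long clonotypes had 17 or more residues and were compared with 12 to 16 in the same mouse. Unassigned bases are those between V and J outside D, set to 0 for the 1701 rows in which V and J overlap. Clonotypes were counted once each unless reads are named. Groups were compared by exact Mann–Whitney U-tests, classes by exact sign-flip tests over mice (segments with at least 10 clonotypes in at least 3 mice), and reads per segment and length class by edgeR 4.0.16 (TMM; at least 10 reads in at least 3 mice) with DESeq2 1.42.0 as an alternative, in R 4.3.3 and Python 3.11.15 (scipy 1.17.1). Zero counts have a limit of 3 counts. Named were the most abundant long sequence of each mouse, those in 4 or more mice (none), the longest, every TRBJ and TRBD, up to 6 TRBV and up to 4 amino acids in each direction by size of the difference. Germline ends and coordinates came from GENCODE vM21 on GRCm38. Tests were checked on simulated data. Replicates left out, replicate block, clonotype definition, length limits, comparison class, weighting and test were varied.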

Additional observations from a re-analysis of the deposited data

Results flagged for a closer look

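Among 10 measures of the long clonotypes in the 5 CTXpre/CD4post mice, 2 had a mouse far from the others. CTXpre/CD4post mouse 3 had 31.7% of its long reads in clonotypes of 10 or more reads, and the nearest mouse, number 4, had 8.68%. The mean hydropathy of the middle 5 residues was -0.768 in CTXpre/CD4post mouse 5, and the nearest mouse of the group, number 3, had -0.628. CTXpre mice 1 and 2, with -0.798 and -0.786, were lower still, so the value stands out in its own group only. CTXpre/CD4post mouse 5 also had the fewest long clonotypes (151). Chance gives such a gap in about 1 of 20 groups, and the cause was not tested.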

How the results depend on the processing

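The within-mouse results on the share without D, TRBD2 and hydropathy, none of which is independent of the choice by length, kept direction and passed the exact sign-flip test under every alternative run, and none of the 5 measures compared between groups passed. With 1 mouse left out the smallest possible exact p for a group measure is 0.0571 or 0.0952, so those runs bear on the values alone. The difference in long clonotype share between the groups, 0.0186 percentage points, ranged from -0.119 to 0.0931 with 1 mouse left out and was negative without CTXpre mouse 1 or 2 or CTXpre/CD4post mouse 1. At 18 or more residues the group difference in unassigned bases was 0.0525 instead of -0.15, clonotypes of 1 read exceeded the 12 to 16 class by 5.21 percentage points (exact sign-flip test, p = 0.0234), and 4 TRBV segments were called in place of 16. Weighting by reads gave 9 TRBV. Leaving out clonotypes of 1 read gave 0 TRBV and 6 amino acids in place of 10, and raised the group differences to 0.622 (clonotype share), 1.18 (read share) and 17.8 percentage points (expanded share) from 0.0186, 0.275 and 8.79 (exact Mann–Whitney U-test, p of 0.143, 0.25 and 0.286). Restriction to TRBD2 clonotypes, added after seeing the data, also gave 6 amino acids. With a replicate block, edgeR called 2 J rows, 1 of them long (TRBJ1-6, adjusted p = 0.0208), and 0 TRBV rows. The deviations of same-numbered mice had correlations of 0.46, -0.33 and -0.02, with no common direction. The numbers were not taken as pairs, although so few values cannot settle whether they are. With the replicate block the differences between the groups were 0.15 (clonotype share), 0.677 (read share), -4.31 (clonotypes of 1 read) and 11.8 percentage points (expanded share) and -0.17 unassigned bases, and 3 pairs cannot give an exact p below 0.25. The sequences shared by CTXpre/CD4post mice 1 and 2 were also left out. The group differences were then 0.0327 (clonotype share), 0.337 (read share), -5.79 (clonotypes of 1 read) and 8.82 percentage points (expanded share). The difference in unassigned bases was then -0.166. No TRBV row of 18 or more residues had enough reads to be tested. At 10000 reads per library, 151 to 248 long clonotypes per mouse limit these comparisons.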
